A study of Cynoglossus semilaevis with 6 samples.

Results

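Alternative transcript ends were examined in livers of the half-smooth tongue sole, a flatfish. An end is the last exon of an assembled transcript, listed with its start, its end, its strand and an FPKM value. Ends were kept where the assembled gene had 2 or more of them in that library. This gave 1558, 1476 and 1434 ends in the LS_L libraries and 1560, 1515 and 1512 ends in the HS_L libraries. They made up between 11.4% and 12.3% of the 12607 to 12707 ends listed per library and belonged to 638 to 706 genes. Counted once by chromosome, strand, start and end, they were 4650 of 25806 ends. Within each library the share of an end is its FPKM divided by the summed FPKM of all ends of its gene, in percent.

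All fish were female, 10 months old and reared at 30 ppt before a trial of 60 days in tanks. The LS_L fish were brought to 15 ppt by daily steps and held there, and the HS_L fish stayed at 30 ppt. There were 3 libraries per group, each made of pooled RNA from 3 livers of 1 tank, so that p-values measure the spread between tank pools and not between fish. In such bulk RNA, fewer cells of a type and less RNA per cell cannot be told apart. Among the markers set for liver cells, 3 of the 4 hepatocyte genes found were expressed well enough to be tested, and their summed scaled RPKM was 10410 to 15421 in LS_L and 10138 to 23165 in HS_L. Of 10 exocrine pancreas markers the 2 found, cpb1 and prss1, encode digestive proteases, and their summed scaled RPKM was 11.5 to 71.7 in LS_L and 41.0 to 2743 in HS_L. prss1 had 9.19, 53.7 and 63.0 scaled RPKM in LS_L, against 508, 2317 and 30.6 in HS_L. The pancreas markers were thus highest in HS_L_2. The 2 oocyte and ovary markers tested, zar1 and gdf9, were uneven between pools too. zar1 had 0.25, 26.8 and 0.60 scaled RPKM in LS_L, against 34.1, 10.8 and 1.51 in HS_L. The part of these markers in the results was not tested.

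The end of a messenger RNA is made when a protein complex recognises a polyadenylation signal, cuts the nascent RNA and adds a poly(A) tail. A gene can give several ends when it has several such signals in 1 last exon, or when splicing joins a different last exon. Ends as listed here can also stop at the same base and differ only in where the last exon begins. The choice sets the length of the untranslated region and, where the last exon changes, the C-terminus of the protein.

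Most genes had 2 ends. They were 81.3% to 85.0% of the genes in each library, and the largest number in a gene was 6 or 7. In 47.3% to 51.6% of the genes the last exons did not overlap each other. Where such a gene had 2 ends, their outer ends lay a median of 2000 to 2250 bases apart. In 21.6% to 25.1% of the genes the last exons overlapped but stopped at different places, a median of 97 to 165 bases apart. In 21.9% to 24.9% of the genes all ends stopped at the same base, and only the inner boundary of the last exon differed. Between 128 and 166 such genes per library had 2 ends, and in 18 to 23 of these the inner boundaries were exactly 3 bases apart. The ends of 11 to 22 genes carried the names of 2 or more annotated genes. A further 34 to 38 ends per library belonged to 10 or 11 tRNA names, under each of which several tRNA loci were listed together. All of these tRNA ends were listed at 0 FPKM.

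The shares of these kinds of genes did not differ detectably between the groups. For genes with separate last exons the mean was 48.4% ± 1.20 in LS_L and 50.0% ± 1.43 in HS_L (SD, n = 3 each, exact permutation p = 0.3). With 3 libraries against 3 the smallest two-sided p the exact permutation test can give is 0.1, so no single value per library could pass the threshold of 0.05. The number of alternative ends averaged 1489 ± 63.1 in LS_L and 1529 ± 26.9 in HS_L (SD, n = 3 each, exact permutation p = 0.4). The number of genes with them averaged 669 ± 32.1 in LS_L and 692 ± 12.5 in HS_L (SD, n = 3 each, exact permutation p = 0.3).

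The listed ends differed from library to library. Of the 4650 ends, 3353 (72.1%) qualified in 1 library and 545 (11.7%) in all 6. When any gene of the other libraries was allowed to carry the end, 2879 ends (61.9%) were still listed in 1 library and 895 (19.2%) in all 6. The inner boundary of the last exon recurred more often, and 2265 ends (48.7%) had theirs listed in all 6 libraries. The outer end fell on the 3′ end of an annotated transcript for 519 of the 545 ends that qualified in all 6 libraries (95.2%). It did so for 642 of the 3353 ends that qualified in 1 library (19.1%). The match of ends by exact coordinates therefore kept mainly annotated ends.

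**Figure D1:**
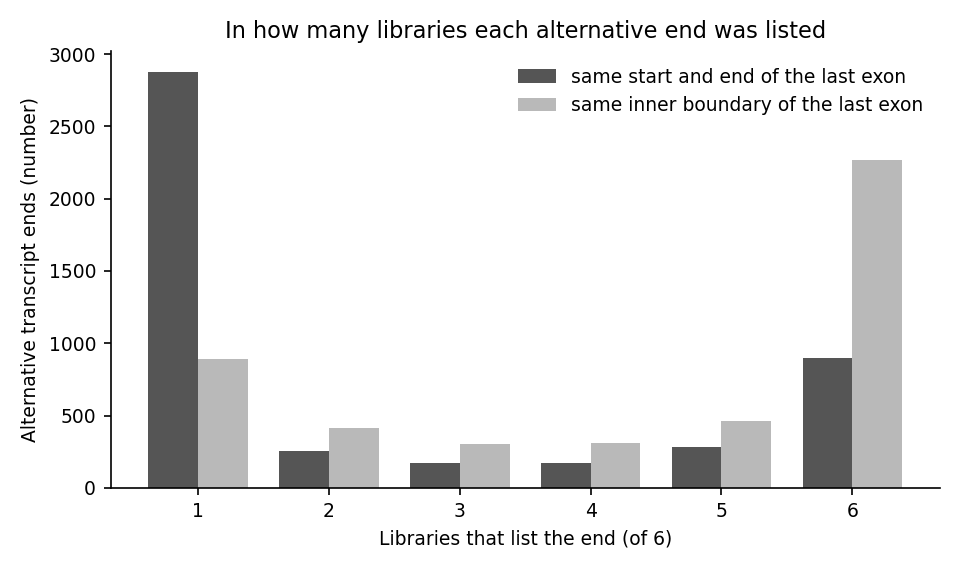
Number of libraries, of 6, that list each of the 4650 alternative ends (x axis) against the number of ends (y axis), for ends matched by both limits of the last exon (dark bars) and by its inner boundary only (light bars). In the dark bars 2879 ends stand at 1 library and 895 at 6 libraries, while in the light bars 890 stand at 1 library and 2265 at 6.

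Genes with alternative ends lay mostly on the minus strand. With tRNA names left out there were 515, 476 and 439 minus strand genes against 177, 179 and 189 plus strand genes in the LS_L libraries. In the HS_L libraries there were 519, 476 and 495 minus strand genes against 176, 195 and 182 plus strand genes. The minus strand thus held 69.9% to 74.7% of the genes with alternative ends in each of the 6 libraries. Genes with 2 or more starts showed the opposite split, and the minus strand held 36.9% to 41.6% of them. The annotation of the deposited features had no such split. In it, 8.86% of 10878 minus strand genes and 9.42% of 10789 plus strand genes had 2 or more 3′ ends. Genes with 2 or more ends also rarely had 2 or more starts, since 94.0% to 95.5% of them were listed with 1 start. Of the genes without 2 or more ends, 19.5% to 21.4% had 2 or more starts.

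**Figure D2:**
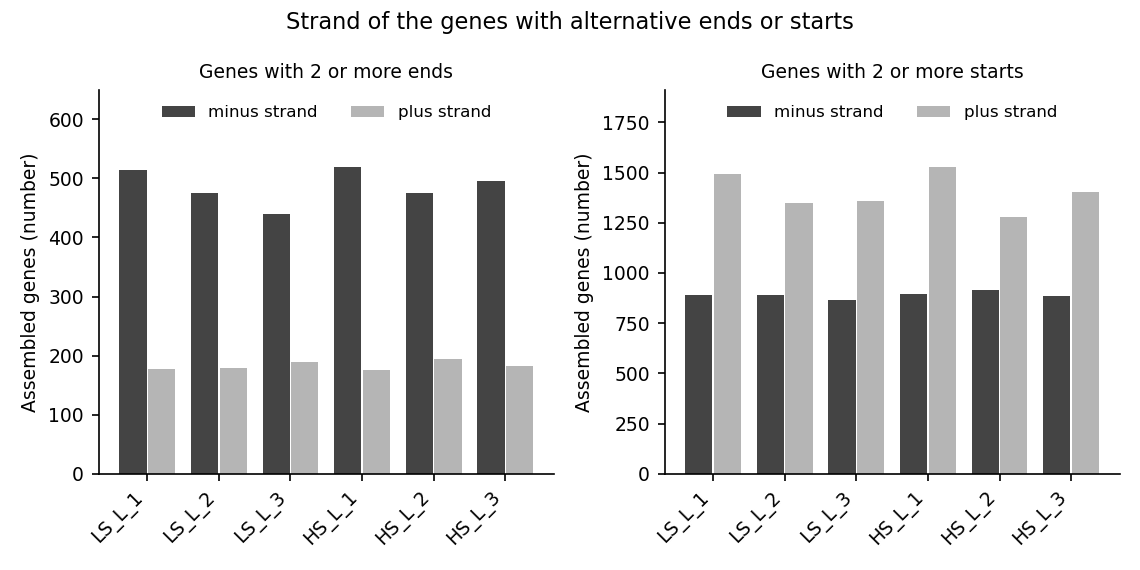
Number of assembled genes (y axis) with 2 or more ends (left) and with 2 or more starts (right) in each library (x axis), on the minus strand (dark bars) and the plus strand (light bars), without tRNA names. In every library the minus strand bar is the taller one for ends, at 439 to 519 genes, and the shorter one for starts, at 865 to 913 genes.

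The completeness of the list differed by strand too. Among genes with 1 start and 1 end and at least 5 FPKM in the larger of them, the end held under 90% of the FPKM of the start in 1.95% to 3.38% of minus strand genes and in 6.97% to 9.03% of plus strand genes. The start held under 90% of the FPKM of the end in 16.7% to 29.3% of minus strand genes and in 8.38% to 12.1% of plus strand genes. An end that is not listed in a library may therefore have been used there. The cause of the split between strands was not tested.

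agxtb, which encodes an alanine-glyoxylate aminotransferase, shows this on chromosome 20. Its end at 3915735-3916038 on the plus strand (Cse_v1.0) was listed at 246, 5.36 and 204 FPKM in the HS_L libraries and in no LS_L library. In the LS_L libraries the start of the same gene was listed at 254, 329 and 367 FPKM, and its 1 listed end, at 3918446-3918968, at 0 FPKM in each. The FPKM of the start was thus carried by no listed end in LS_L, and the absence of the end there says nothing of its use.

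Many of the ends carried little signal. Between 33.5% and 37.4% of them were listed at 0 FPKM, and in 84 to 102 genes per library every end was at 0. The summed FPKM of a gene's ends had a median of 1.72 to 2.68 over the genes of a library. Ends in last exons of up to 30 bases were 4.20% to 5.23% of the alternative ends, against 1.79% to 1.89% of the ends that were the only one of their gene. The part of the FPKM of all alternative ends in these short last exons was uneven. It was 0.69%, 1.33% and 12.6% in LS_L and 29.2%, 15.9% and 11.9% in HS_L. In HS_L_1 a single gene, LOC103385810 on chromosome 11, held 45.5% of the FPKM of all alternative ends. Its 20-base last exon at 2042204-2042223 was listed at 6972 FPKM in that library alone. The end of this gene at 2331379-2331591 was listed in all 6 libraries, at 4331, 6762 and 16599 FPKM in LS_L and 3985, 4681 and 12768 FPKM in HS_L.

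To ask whether the use of ends differed with salinity, ends were compared that qualified in all 6 libraries and whose genes summed to at least 5 FPKM in each. These were 75 ends in 47 genes, out of 545 ends that qualified in all 6. Limma was run on the log2 ratio of the end to the other ends of its gene, with 0.5 FPKM added to both. No end had an adjusted p under 0.05 together with a difference of mean shares of 10 percentage points (0 of 75). Of transcript starts tested in the same way, 4 of 516 did (0.775%). The lowest adjusted p was 0.434. At an unadjusted p under 0.05 there were 7 of the 75 ends, against 19 of the 516 starts. Of these 7 ends, 5 held 0% or 100% in every library and could not differ in share. Because ends of 1 gene share their denominator, they are not independent of each other.

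Among the 75 ends, 25 were at 0% and 6 at 100% in all 6 libraries. The other 44 varied, 30 of them with a share above 0 in every library and 14 at 0 in some. Their mean shares differed between LS_L and HS_L by a median of 7.41 percentage points, while the SD within a group had a median of 10.5 percentage points. The difference was larger than the within-group SD for 16 of the 44. The mean share was higher in LS_L for 24 ends and lower for 20. Of the 47 genes, 36 had their highest share at the same inner boundary in all 6 libraries. HS_L_2 was the library farthest from the median of the 6 for 12 of the 44 ends, the highest number, and LS_L_3 the farthest for 2, the lowest.

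**Figure D3:**
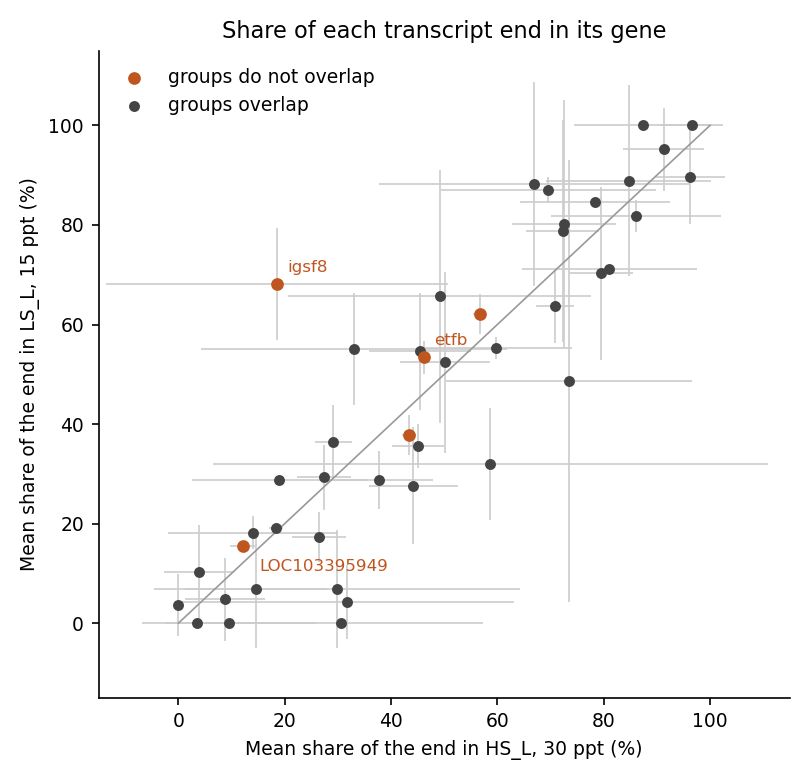
Mean share of an end in its gene in LS_L at 15 ppt (y axis, percent) and in HS_L at 30 ppt (x axis, percent) for the 44 ends that varied, with bars of 1 SD over 3 libraries per group and a line of equal shares. The 5 ends whose groups do not overlap are coloured, and igsf8 lies farthest from the line, at 68.1% in LS_L and 18.6% in HS_L.

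The groups did not overlap for 5 of the 75 ends (6.67%), in 4 assembled genes. The share over all ends was near that of transcript starts tested in the same way, 30 of 516 (5.81%). Only the 44 ends that varied could separate, and how many of the starts varied was not counted. Of the 5 ends, 2 were the mirrored ends of LOC103394609. The 4 genes are therefore given as a description. In igsf8, etfb and LOC103394609 the ends matched in all 6 libraries stopped at the same base and differed only in inner boundary. Their differences in share are thus not differences in where the RNA stops. The largest difference among the 4 genes was in igsf8, which encodes a cell surface protein of the immunoglobulin superfamily. Its end at 12446658-12447123 on the plus strand of chromosome 11 held 80.4%, 58.4% and 65.5% in LS_L, against 0%, 55.7% and 0% in HS_L. The LS_L libraries were all above the HS_L libraries, but HS_L_2 lay within 3 percentage points of the lowest LS_L library. The change in the log2 ratio was 3.73 ± 1.36 (SE, limma adjusted p = 0.434, difference of 49.5 percentage points). A second end of igsf8, at 12446640-12447123, stopped at the same base, and its last exon began a few bases earlier. It held 19.6%, 41.6% and 34.5% in LS_L, against 76.1%, 0% and 100% in HS_L. The HS_L libraries thus had mainly 1 of these 2 ends each, while the LS_L libraries had both. HS_L_1 and HS_L_2 listed 3 ends of igsf8, and the third end held the rest of the FPKM there. With only the 2 ends matched in all 6 libraries as denominator, the difference was 34.7 percentage points (limma adjusted p = 0.687). Of these 2 ends HS_L_2 had FPKM only in the first, so the groups then overlapped. Without HS_L_2 the first end passed the threshold (limma adjusted p = 0.0261, difference of 68.1 percentage points).

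etfb, the beta subunit of the electron transfer flavoprotein that passes electrons from mitochondrial dehydrogenases to the respiratory chain, had 3 ends in every library. All stopped at 3340384 on the minus strand of chromosome 13. The shortest last exon, 225 bases long, held 56.0%, 54.6% and 49.6% in LS_L and 47.1%, 45.2% and 46.3% in HS_L. It led the gene in all 6 libraries, with a change of 0.41 ± 0.24 in the log2 ratio (SE, limma adjusted p = 0.555). The middle one, of 903 bases, held 22.2%, 12.1% and 17.6% in LS_L and 29.6%, 29.1% and 20.6% in HS_L. The longest, of 1184 bases, held 21.7%, 33.3% and 32.8% in LS_L and 23.3%, 25.7% and 33.1% in HS_L, and its groups overlapped.

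LOC103394609 on chromosome 18 had 2 ends that stopped at 13360272 on the minus strand. The shorter last exon held 61.9%, 66.3% and 58.3% in LS_L and 55.3%, 57.9% and 56.8% in HS_L (limma adjusted p = 0.699). The lowest LS_L library and the highest HS_L library were under 1 percentage point apart. LOC103395949 on chromosome 20 was assembled together with LOC112486262, and the joined gene had 4 ends in every library. Its end at 2148746-2149656 held 15.1%, 16.1% and 15.2% in LS_L and 14.4%, 9.55% and 12.5% in HS_L (limma adjusted p = 0.699). The end at 2156255-2157182, which leads this joined gene, carries the name of LOC112486262. The share of the LOC103395949 end thus mainly compares annotated genes and not ends of the same gene. The leading end held 84.9%, 83.9% and 84.8% in LS_L and 85.6%, 62.1% and 87.5% in HS_L. The low value was HS_L_2, where a 19-base last exon at 2156007-2156025 was listed at 28.4% and in the other 5 libraries at 0%.

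**Figure D4:**
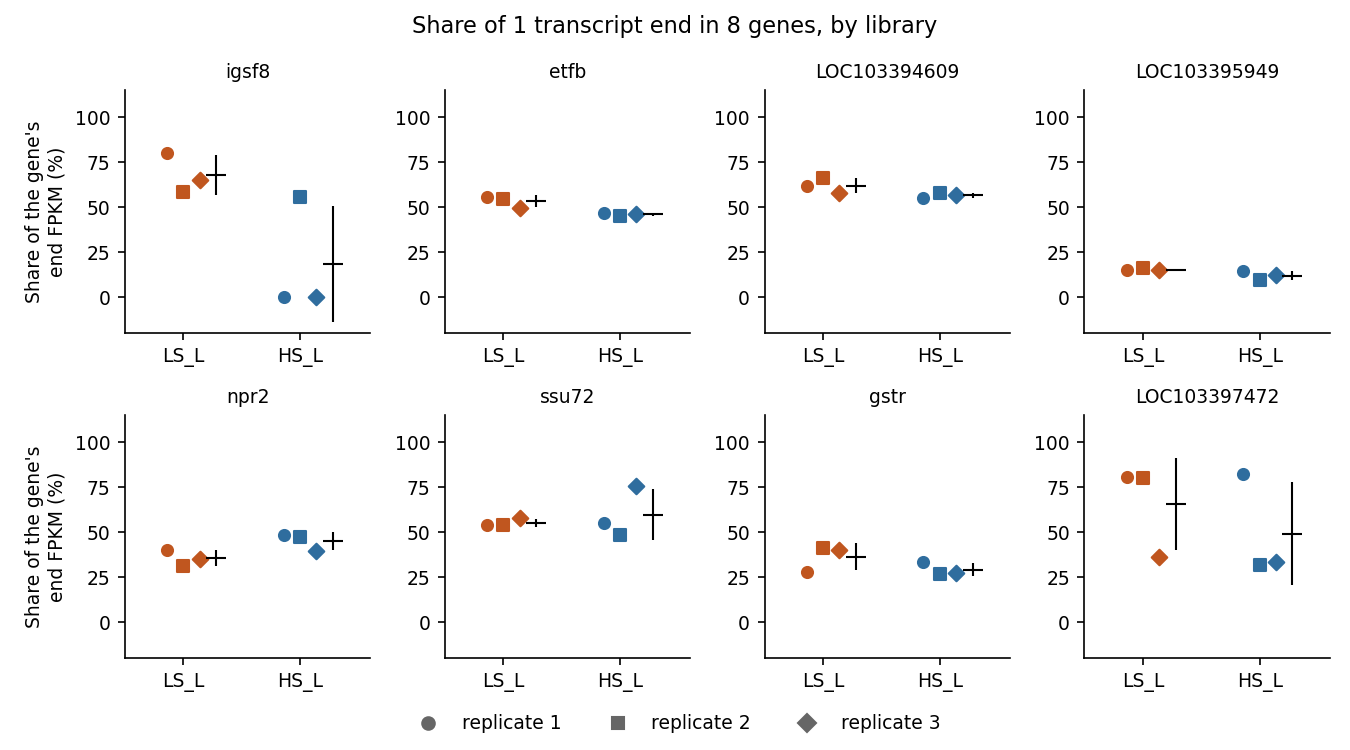
Share of 1 end in each of 8 genes (y axis, percent) for the 3 LS_L libraries (left in each panel) and the 3 HS_L libraries (right), with the mean and a bar of 1 SD. The replicates of a group are told apart by their symbols. The upper 4 genes have groups that do not overlap, such as etfb at 49.6% to 56.0% in LS_L and 45.2% to 47.1% in HS_L, and the lower 4 have overlapping groups.

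Among ends with overlapping groups, cbfb and npr2 are given as examples chosen after their values were seen. cbfb encodes the partner protein of the Runx transcription factors. Its 21-base last exon at 1829347-1829367 on the minus strand of chromosome 6 held 0% in the 3 LS_L libraries and 49.4%, 42.3% and 0% in HS_L (change of -3.36 ± 1.16 in the log2 ratio, SE, limma adjusted p = 0.434). HS_L_3 was at 0% like the LS_L libraries. npr2, a receptor guanylate cyclase for C-type natriuretic peptide, had an end at 469363-469529 on the plus strand of chromosome 14 with 40.2%, 31.5% and 35.1% in LS_L and 48.5%, 47.2% and 39.4% in HS_L. Its groups overlapped by the highest LS_L and the lowest HS_L library (change of -0.56 ± 0.28, SE, limma adjusted p = 0.474).

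The genes with the highest summed FPKM among those tested were led by LOC103397472 on chromosome Z, at a mean of 2013 FPKM. Its end at 1649557-1649748 on the minus strand held 80.6%, 80.1% and 36.3% in LS_L and 82.1%, 32.0% and 33.5% in HS_L. The 3 low libraries were those in which a further end of 13 or 20 bases, near 1645668, was listed. LS_L_3 and HS_L_2 listed it at 45.9% and 48.1%, and HS_L_3 at 24.6%, together with a 20-base end at 1647358-1647377 of the same FPKM. The end at 1650816-1651006 varied little, with 19.4%, 19.9% and 17.8% in LS_L and 17.9%, 19.9% and 17.3% in HS_L. In the libraries with a further end, the end at 1649557-1649748 had 956 FPKM in LS_L_3 and 474 and 766 FPKM in HS_L_2 and HS_L_3. In those without one it had 1452 and 1758 FPKM in LS_L_1 and LS_L_2 and 1377 FPKM in HS_L_1.

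gstr encodes a glutathione S-transferase of a class found in fish, and the mean summed FPKM of its ends was 398. The end at 14210614-14211011 on the plus strand of chromosome 18 held 27.8%, 41.2% and 40.1% in LS_L and 33.2%, 26.8% and 27.5% in HS_L (limma adjusted p = 0.699). The summed FPKM of both ends was 424, 167 and 193 in LS_L and 450, 614 and 539 in HS_L. The groups did not overlap in this sum, whereas they did in the share. In the separate table of RPKM, 1 annotated gstr transcript averaged 34.6 ± 19.4 in LS_L and 77.3 ± 13.0 in HS_L after scaling (SD, n = 3 each). Its log2 fold change was -1.26 ± 0.39 (SE, limma adjusted p = 0.670 over all features). A second gstr transcript averaged 29.1 ± 9.64 in LS_L and 52.5 ± 4.46 in HS_L (SD, n = 3 each). Its log2 fold change was -0.87 ± 0.28 (SE, limma adjusted p = 0.682).

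zgc:91910 and LOC103386906, the second assembled together with cfap36, completed the 5 most abundant genes, at 313 and 269 FPKM. The end of zgc:91910 at 1497648-1499061 on chromosome 18 held 100%, 23.2% and 22.8% in LS_L and 100%, 57.3% and 63.3% in HS_L. In both groups replicate 1 was the library with 100%. The end of LOC103386906 at 905715-905862 on chromosome 12 held 64.5%, 58.2% and 42.6% in LS_L and 0%, 46.8% and 52.5% in HS_L. Only HS_L_1 stood apart there, and neither end passed the test (limma adjusted p = 0.834 for zgc:91910 and 0.699 for LOC103386906).

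Some of the 6 ends that held 100% in every library are given here by gene. tmem258, a small subunit of the oligosaccharyltransferase complex, had 100% at 12937007-12937185 and 0% at 12936872-12937192 on chromosome 6 in all 6 libraries. azin1b, an antizyme inhibitor that raises polyamine synthesis, likewise had 100% at 11112183-11113682 on chromosome 18. ugcg, the enzyme that makes glucosylceramide, had 100% at 27084437-27085893 on chromosome 14. cyb5b encodes the cytochrome b5 of the outer mitochondrial membrane. On an unplaced scaffold it had ends with inner boundaries at 540915 and 540918, and the longer last exon held 79.0%, 85.3% and 81.0% in LS_L and 100%, 89.4% and 68.6% in HS_L. The longer one led in all 6 libraries.

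The genes with most ends found in all 6 libraries had few FPKM. The span of c3h18orf63 and dipk1c on chromosome 3, assembled as 1 gene, had 6 such ends, and their sum was between 0 and 0.285 FPKM in the 6 libraries. A further 6 genes had 4 ends each, among them nsun4, an RNA methyltransferase, at 1.24 to 2.43 FPKM, and snx16, a sorting nexin of endosomes, at 1.04 to 2.77 FPKM. The joined gene of LOC103395949 was the only one of these 7 that reached 5 FPKM in every library.

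Lowering the minimum to 1 FPKM gave 179 ends in 108 genes and again no call, with a lowest adjusted p of 0.0832. That end belonged to LOC103386750, annotated by a non-coding transcript on chromosome 11. The end at 19469881-19470274 on the minus strand held 0% in the 3 LS_L libraries and 54.6%, 38.0% and 43.1% in HS_L, with 3.36, 2.29 and 2.92 FPKM. A second end, with an inner boundary at 19469834 or 19469856, held the rest. The end at 19469881-19470274 was 1 of 12 ends among the 179 whose groups did not overlap. At a minimum of 5 FPKM this held for 5 of 75 ends (6.67%) and 30 of 516 starts (5.81%). Starts were not tested at a minimum of 1 FPKM. This end was chosen after its values were seen.

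In 13 of the 4650 ends (0.28%) all 3 LS_L libraries and no HS_L library had an FPKM above 0, and in 14 (0.30%) the reverse held. The shares were low in part because 2879 of the 4650 ends were listed in only 1 library and could not count here. No such count over starts or over all listed ends is given, so these shares stand without a comparison. The genes named from the 13 and the 14 ends serve only to describe how such ends were listed. For 9 of the 13 and 7 of the 14, the same inner boundary was listed above 0 in a library of the other group with another outer end. usf1, a transcription factor that binds E-boxes, was of this kind. Its end at 5580120-5580810 on chromosome 4 was listed at 24.5, 27.6 and 21.0 FPKM in HS_L and not in LS_L. The LS_L libraries had the same inner boundary at 38.1, 19.4 and 19.2 FPKM, with outer ends at 5580122, 5580135 and 5580124. fosab, a member of the AP-1 transcription factor family, was similar in the other direction. Its end at 4417783-4418469 on chromosome 7 had 17.4, 7.72 and 2.63 FPKM in LS_L. The inner boundary 4418469 was listed at 6.78, 10.8 and 30.5 FPKM in HS_L with outer ends further downstream, at 4417271, 4417290 and 4417259. The LS_L libraries listed other fosab ends with outer ends at 4417262, 4417264 and 4417277, so the outer ends of the gene overlapped between the groups.

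khdc4, an RNA-binding protein with KH domains, had ends at 3 inner boundaries. The end at 5341834-5344013 on the minus strand of chromosome 13 held 36.3%, 45.2% and 30.9% in LS_L and was in no HS_L library. With ends missing from a library set to 0, it was the only end called (limma adjusted p = 0.00245). The inner boundary 5344013 was listed in HS_L_2 at 46.1% and in HS_L_3 at 46.4%, with outer ends at 5342627 and 5341936. HS_L_1 had no end at this boundary. Grouped by inner boundary, 2 of the 3 HS_L libraries thus lay above the highest LS_L library.

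**Figure D5:**
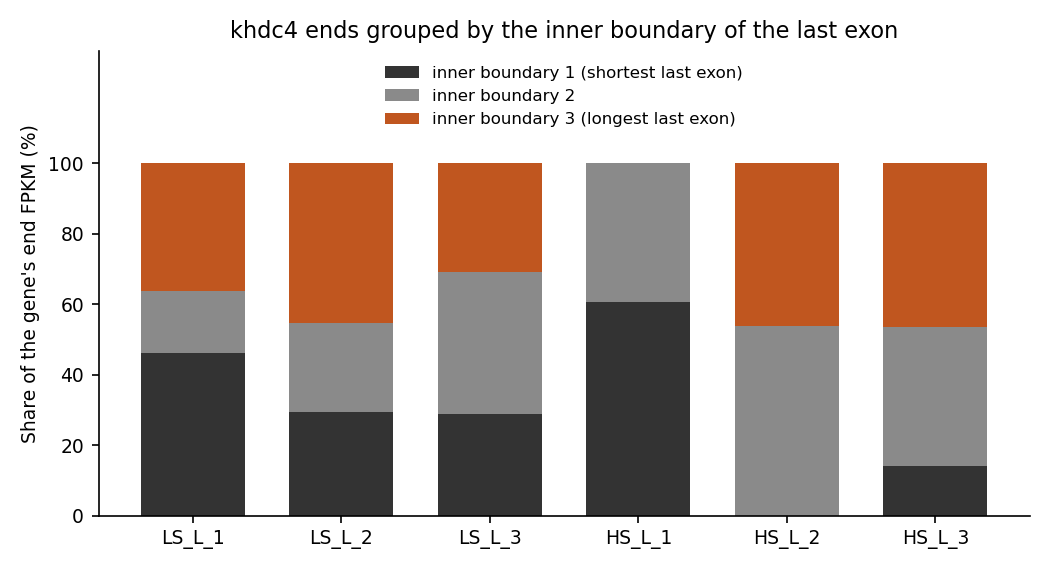
Share of the FPKM of all khdc4 ends (y axis, percent) held by each of the 3 inner boundaries of the last exon, stacked, in the 3 LS_L and the 3 HS_L libraries (x axis). The third boundary holds 36.3%, 45.2% and 30.9% in LS_L and 0%, 46.1% and 46.4% in HS_L.

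When ends were matched by inner boundary instead, 117 could be tested and none was called. The groups did not overlap for 7 of these 117 (5.98%), again near the 5.81% of starts, with boundaries that did not vary counted too. They were the 5 ends above and both boundaries of LOC103384142 on chromosome 9, the first of which, 15919886, held 49.1%, 74.5% and 57.1% in LS_L and 37.8%, 0% and 0% in HS_L (limma adjusted p = 0.508).

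The leading end of a gene held a median of 100%, 87.5% and 100% in LS_L and 100%, 88.0% and 86.0% in HS_L over the 47 genes tested (exact permutation p = 0.7, n = 3 each). Over all genes with 2 or more ends and an FPKM above 0, the medians were 83.6%, 84.2% and 84.2% in LS_L, against 82.1%, 79.8% and 81.4% in HS_L. These groups did not overlap, and the mean difference was 2.90 percentage points (exact permutation p = 0.1, the smallest possible, and 0.743 after Benjamini-Hochberg adjustment over 13 measures). The genes in this median differed between libraries, from 536 to 622. The share held by the end furthest downstream had medians of 88.2%, 83.8% and 80.7% in LS_L and 80.3%, 76.3% and 87.3% in HS_L over the same genes, and its groups overlapped.

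Starts of the same files were the nearest comparison. Over genes with 2 or more rows of both kinds and at least 5 FPKM, of which a library had only 2 to 10, the leading end held more than the leading start in 5 of 6 libraries. The mean difference was 17.3 ± 17.9 percentage points (SD over 6 libraries, exact sign-flip permutation p = 0.0938). In genes with exactly 2 ends or exactly 2 starts, a comparison added after the small number had been seen, the leading end held a median of 80.7% to 83.0% and the leading start 75.8% to 78.4%. The difference was between 3.15 and 5.93 percentage points in the 6 libraries (exact sign-flip permutation p = 0.031, the smallest possible). The 2 sets were unlike, with 137 to 209 genes of 2 ends and 417 to 589 genes of 2 starts per library. Genes with several ends and those with several starts also lay mostly on opposite strands. The p-value measures how steady the difference was over libraries and not the spread between genes. The same share test on starts called 4 of 516 (0.775%), in aldh8a1 and LOC103388042, against 0 of 75 ends. Whether starts and ends differ in this count was not tested.

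The level of single annotated transcripts of these genes was tested separately. Of 1997 annotated transcripts named by the alternative ends, 752 had a mean of at least 1 RPKM, and none was called. The limits were 0.05 for the adjusted p and 1 for the log2 fold change in either direction. A further 724 (36.3%) were at 0 RPKM in all 6 libraries, against 38.9% of all 34751 features. Of the 75 transcripts named by the tested ends, 34 were at 0 in all 6 libraries and 21 were tested. The etfb transcripts were among those at 0, although the etfb ends summed to 54.6 to 92.4 FPKM. The RPKM thus gave no level for such genes. A tested transcript need not give the level of its gene either. The ends of tmem258 summed to 147 to 323 FPKM, while its transcripts had 0 and 2.05 to 5.86 scaled RPKM. In npr2 the values were nearer, at 26.6 to 70.3 FPKM and 19.5 to 62.6 scaled RPKM. Over all features 4 of 9343 were called (0.0428%), and none with the replicate number as a block. The test missed large differences. Of 15 tested sterol synthesis transcripts 3 were called, while their median log2 fold change was 2.76. msmo1, at 2.72 ± 0.52 (SE, limma adjusted p = 0.315), was not called. A transcript without a call may therefore still differ in level. At an unadjusted p under 0.05 there were 53 of the 752 (7.05%), against 614 of all 9343 features (6.57%). Their median log2 fold change was 0.01, against 0.03 over all features.

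Genes of the lists could be looked up only where a feature carried their name. This was so for 22 of 28 sterol synthesis genes and 3 of 17 osmoregulation genes, and none of those found had alternative ends. Nor had the marker genes found, which were 4 of 10 for hepatocytes, 2 of 10 for exocrine pancreas, 4 of 6 for oocyte and ovary, 1 of 5 for red blood cells and 0 of 7 for skeletal muscle. Of the 13 liver secreted genes found, out of 30 listed, 2 had alternative ends. rbp4, the plasma carrier of retinol, had 2 ends in all libraries but LS_L_1. Its end at 670041-670497 on the plus strand of chromosome 8 held 80.8% and 80.3% in LS_L_2 and LS_L_3, where it was 100% in LS_L_1, and 78.6%, 80.3% and 68.8% in HS_L. It was the leading end in every library. plg, the precursor of plasmin, had 2 ends in HS_L_1 only.

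The cleavage and polyadenylation genes encode proteins that act in cutting the RNA and adding its tail. Of 22 genes listed 16 were found, and 13 of them had 14 tested transcripts. None was called or had an unadjusted p under 0.05. Their log2 fold changes were positive for 13 and negative for 1, against 5062 positive and 4281 negative among all 9343 features. The median was 0.14, against 0.03 over all features. The negative value, -0.02, was that of 1 cstf2 transcript, and a second cstf2 transcript had 0.43. cpsf3, the endonuclease that cuts the RNA, averaged 6.39 ± 0.63 scaled RPKM in LS_L and 4.85 ± 1.19 in HS_L (SD, n = 3 each), a log2 fold change of 0.35 ± 0.20 (SE, limma adjusted p = 0.836). nudt21, a subunit of cleavage factor I, averaged 9.04 ± 1.46 in LS_L and 7.93 ± 1.66 in HS_L (log2 fold change of 0.18 ± 0.21, SE, limma adjusted p = 0.941). pabpn1, the nuclear poly(A)-binding protein, averaged 8.44 ± 2.61 in LS_L and 6.05 ± 1.69 in HS_L (log2 fold change of 0.41 ± 0.27, SE, limma adjusted p = 0.871). ssu72, a phosphatase of the RNA polymerase II tail, was the only one of the 16 with alternative ends. Its end at 2655755-2656591 on the minus strand of chromosome 11 held 54.1%, 53.9% and 57.7% in LS_L and 55.2%, 48.4% and 75.8% in HS_L (limma adjusted p = 0.781), and the LS_L values lay within the range of the HS_L values.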

How the data were processed

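The members and gene lists were chosen with earlier results of these data known. The authors aligned paired-end reads with TopHat2 2.0 and Bowtie2 2.0.6 (submitters' processing notes), removed multiply mapped reads and counted with HTSeq. They deposited RPKM per feature for each library, a table of features with a signal per group (the authors' mean of normalized reads, not used in tests) and lengths, and a file per library of transcript events with FPKM. The tool behind the event files is not given in the sources used here. In genes with 2 ends and 1 start, both ends summed to the start within 0.1% in 50.7% to 68.7% of genes. There an event's FPKM can be read as the sum of the assembled transcripts that carry it. In the other genes this sum did not hold. Reads recovered from RPKM and length were 16176689 to 19428740 per library, and 99.8% to 99.9% of the values above 0 were whole within 0.05. FPKM hold no such depth, so none is given for single ends. RPKM were scaled by median-of-ratios factors of 0.807 to 1.26.

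R 4.3.3 with limma 3.58.1 (lmFit, eBayes with trend and robust settings, no covariate) was used and tested on simulated data. The simulated noise was independent between ends, whereas ends of the same gene are linked. That run therefore does not show how the test behaves with linked ends. Tables were handled in Python 3.11.15 (numpy 2.4.6, pandas 2.3.3), exact tests were run in scipy 1.17.1, and plots were drawn with matplotlib 3.10.9. Shares were tested on log2 ratios with 0.5 FPKM added, in genes of at least 5 FPKM in every library, and levels on log2 of the scaled RPKM plus 1 for a mean RPKM of at least 1. Adjustment was by Benjamini-Hochberg over all ends or all features. Names came from RefSeq accessions for 20198 features and, for 12795, from an overlap in position of 0.5 or more (Cse_v1.0), leaving 1758 unnamed. Named were all called ends, the genes with the largest differences among ends whose groups did not overlap (up to 12), the 5 with most ends (7 tied, without tRNA names), the 5 with the highest summed FPKM, list members with 2 tested ends (none) and the cleavage and polyadenylation list. Other genes were chosen after their values were seen. Same-numbered libraries correlated at 0.173, 0.165 and 0.232 in their deviations of level from the group means, but 3 crossed pairs were above 0.1 too, and in the shares at 0.470, -0.020 and 0.188. Alternatives were other pseudocounts, minimums, denominators, matching, a replicate block and leaving out each library.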

Additional observations from a re-analysis of the deposited data

How the results depend on the processing

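The count of called ends, 0, was unchanged with a pseudocount of 0.1 or 1, a minimum of 1 or 20 FPKM or none, the share itself, matched ends as denominator, matching by inner boundary, a test without trend and robust settings and, added after seeing the data, without ends at 0 in every library. With missing ends set to 0 it was 1 (khdc4). Leaving out each library gave 0 to 1 calls: 1 without LS_L replicate 3 (stx1a, limma adjusted p = 0.0429) and 1 without HS_L replicate 2 (igsf8). The end of stx1a at 17166961-17168007 had 52.8%, 44.9% and 0% in LS_L and 0% in all HS_L libraries. A replicate block gave 0 called ends and changed no call of a member transcript. In the shares, same-numbered libraries correlated at 0.470, -0.020 and 0.188, which does not settle whether the numbers pair the libraries. No tested transcript of the genes with alternative ends was called under any alternative for levels. Over all features the 4 calls became 10 with RPKM as deposited, 1 with no minimum, 0 with the block, and 0 to 17 with a library left out, 17 without LS_L replicate 1. The difference in the median share of the end furthest downstream in the tested genes, 4.92 percentage points, was -4.41 at a minimum of 20 FPKM and between -9.91 and 7.01 with each library left out. The difference between leading ends and starts was 4.57 percentage points in genes with 2 ends or 2 starts, which are unlike sets of genes (exact sign-flip permutation p = 0.031). The causes were not tested. Most ends were left out of the test, since only 75 of the 545 ends that qualified in all 6 libraries lay in genes with 5 FPKM in each.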
